A study of Mus musculus with 5 samples.

Results

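The genes described here encode matricellular proteins and components of elastic fibres and their surrounding matrix in the neonatal mouse heart. The 10 genes were taken by symbol: Postn, Tnc, Fn1, Eln, Fbn1, Sparc, Thbs1, Lox, Vcan and Hapln1. All 10 were found among the 49671 genes of the deposited count table, and all 10 passed the filter on low counts that left 14880 genes for testing. RNA was sequenced from whole hearts of C57BL6/J mice at postnatal day 2, with poly(A) selection and strand information. CharmeWT hearts came from wild-type littermates, and CharmeKO hearts carried an inserted PolyA signal in the locus of Charme, a long noncoding RNA of muscle and heart, in every cell of the animal. There were 3 CharmeWT pools of 9 hearts each and 2 CharmeKO pools of 3 hearts each, so pool size and genotype cannot be told apart. Animals were picked at random from both sexes. The question put to these genes was how their RNA levels differed between CharmeKO and CharmeWT hearts.

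Elastic fibres are built from elastin, encoded by Eln, which is deposited on microfibrils whose main component is fibrillin-1, encoded by Fbn1, and is cross-linked by lysyl oxidase, encoded by Lox. Matricellular proteins such as periostin, tenascin-C, thrombospondin 1 and SPARC are secreted into the matrix, where they act on cell attachment, growth factor activity and collagen assembly rather than as structural fibres. Fibronectin, encoded by Fn1, is an early matrix protein bound by integrins, and versican, encoded by Vcan, is a large proteoglycan held on hyaluronan by the link protein of Hapln1. In the developing heart, elastin is known from the great arteries and valves, and versican, Hapln1 and periostin from the cardiac cushions and valves.

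The repeat that gives elastin its elastic sequence is shown first because Eln had the lowest CharmeKO level relative to CharmeWT of the 10 genes. Exon 27 of the Eln transcript ENSMUST00000015138.12 (GENCODE M21) lies on the minus strand at chr5:134711062-134711220 of GRCm38, is wholly coding and is 159 bases long. It holds 5 in-frame copies of GTNCCNGGN, the codons of valine, proline and glycine, which are in capitals in the sequence below.
Eln exon 27: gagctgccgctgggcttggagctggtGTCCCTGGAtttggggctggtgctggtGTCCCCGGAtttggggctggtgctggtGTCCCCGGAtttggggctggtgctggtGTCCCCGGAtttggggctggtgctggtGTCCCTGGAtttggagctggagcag
The coding sequence of this transcript, 2580 bases in 37 exons, held 23 such in-frame copies. In the coding sequence of 1 transcript of each of 8 other genes of the set there were 5 copies in Tnc, 3 in Fn1, 1 each in Vcan and Hapln1, and 0 in Fbn1, Postn, Sparc and Thbs1. Lox was not searched for the repeat. The counts analysed here are per gene and do not separate exons or splice forms.

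Sequence upstream of the start was taken from RefSeq (GRCm38.p6) for the genes with an entry. These were 6 of the 9 symbols looked up, with 8 windows of 250 bases. Fn1, Eln and Thbs1 had no entry, and Lox was not looked up. The last 100 bases before the start are printed for 4 genes, 5′ to 3′ on the gene's strand: Postn and Tnc because both held a TATA-box motif, and Vcan and Hapln1 because they are neighbours on chromosome 13 whose levels were both highest in the same CharmeKO pool. Capitals mark TATATAA. The windows printed are chr3:54361007-54361106 (plus strand) for Postn, chr4:64046937-64047036 (minus) for Tnc, chr13:89742513-89742612 (minus) for Vcan and chr13:89540536-89540635 (plus) for Hapln1.
Postn: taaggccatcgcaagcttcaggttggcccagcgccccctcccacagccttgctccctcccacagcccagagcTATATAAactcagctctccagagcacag
Tnc: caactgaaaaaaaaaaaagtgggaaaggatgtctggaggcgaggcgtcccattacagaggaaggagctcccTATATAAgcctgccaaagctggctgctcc
Vcan: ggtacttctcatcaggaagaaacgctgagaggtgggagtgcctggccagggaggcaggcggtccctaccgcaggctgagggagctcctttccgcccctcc
Hapln1: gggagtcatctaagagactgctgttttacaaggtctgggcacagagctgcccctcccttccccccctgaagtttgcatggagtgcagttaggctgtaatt
Each window of 250 bases was searched on both strands for the TATA-box motif TATATAA, the AP-1 motif TGANTCA and the TEAD motif GGAATG, none of which contains another. TATATAA was found in 1 window each of Postn and Tnc, beginning 28 and 29 bases before the start, and in 3.04% of 32851 promoter windows of the same length. No window of the 6 genes held TGANTCA or GGAATG, which were found in 6.75% and 12.6% of all windows. A match, or its absence, describes these letters in these windows only.

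Library totals ranged from 16721055 to 21646378 counts. Charme itself had 810, 183 and 276 counts in the CharmeWT pools and 57 and 79 in the CharmeKO pools (log2 fold change -2.49 ± 0.549, SE, adjusted p = 0.0763). Both CharmeKO pools stood apart from the CharmeWT pools in genes of other tissues. The 10 genes of a salivary gland list summed to 0.566 to 3.69 CPM (counts scaled to library size) in the CharmeWT pools, with 6 of the 10 at 0 in all 3, and to 347 CPM in CharmeKO pool 1 and 25490 CPM in CharmeKO pool 2. The 6 genes of an adipose list summed to 528 to 689 CPM in CharmeWT and to 697 and 2056 CPM in CharmeKO. Fabp4 alone made up 494 to 648 CPM of the CharmeWT sums and 627 and 1008 CPM of the CharmeKO sums. Ucp1 of the same list had 0 to 3.74 CPM in CharmeWT and 36.9 and 710 CPM in CharmeKO. Among the 10 genes, the same 2 were called when the salivary and mitochondrial genome genes were left out of the fit. That fit kept the adipose genes, and it cannot take out reads of the 10 genes that came from other tissues. Values without a CharmeKO pool stand below beside the genes whose call or sign depended on it.

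Levels are given as FPKM, counts scaled to exon length and library size, computed here from the deposited counts with TMM-scaled library sizes, so that genes can be compared per length. Sparc had the highest level, with a rank of 132 among the 14880 genes tested, followed by Postn at 374, Eln at 481 and Fn1 at 1259. Fbn1, Vcan, Thbs1, Lox and Tnc ranked from 3279 to 8151, and Hapln1 ranked 12955. By group means in CharmeWT hearts the order was Sparc at 358.9 ± 29.8 FPKM, Eln at 127.6 ± 46.1, Postn at 99.2 ± 16.4, Fn1 at 37.8 ± 6.34, Fbn1 at 13.3 ± 1.34, Lox at 6.52 ± 0.793, Vcan at 6.43 ± 0.527, Thbs1 at 5.34 ± 0.999, Tnc at 3.11 ± 0.333 and Hapln1 at 0.369 ± 0.0965 (SD, n = 3 pools). Within this order the pools of Eln and Postn overlapped, as did those of Lox, Vcan and Thbs1, whereas the other neighbours had pools that did not overlap. In CharmeKO hearts Postn, at 161.3 ± 42.1 FPKM, stood above Eln, at 50.2 ± 13.4 (SD, n = 2 pools), without overlap between the pools. The 10 genes together took 0.325% to 0.469% of all counts in a pool, and Sparc, Postn and Eln made up 77.3% to 83.4% of that share.

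**Figure D1:**
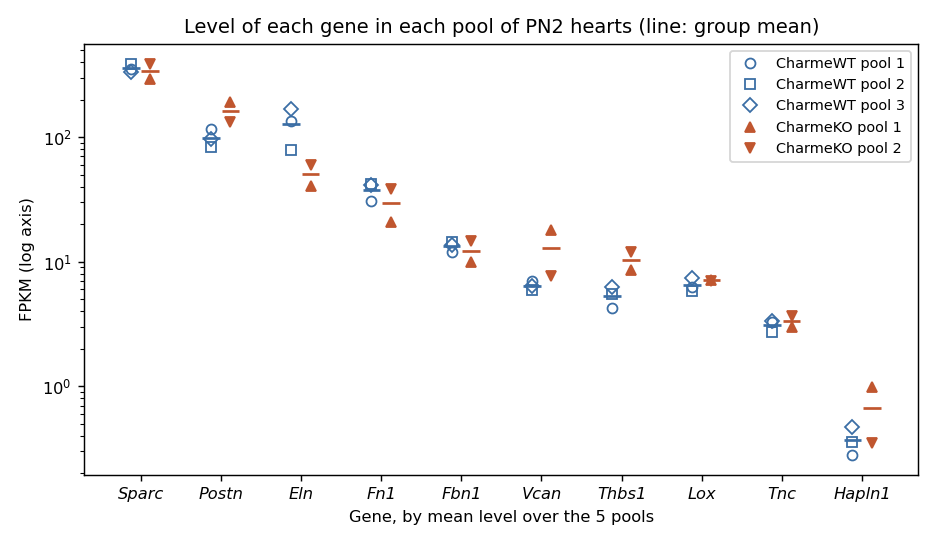
Level of each of the 10 genes in FPKM on a log10 axis, with a point for each pool and a line at each group mean (3 CharmeWT pools and 2 CharmeKO pools). The CharmeKO points of Eln lie below all CharmeWT points, those of Thbs1, Postn and Vcan lie above them, and the points of the other 6 genes overlap.

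Each gene was tested with edgeR's quasi-likelihood test and Benjamini-Hochberg adjustment over the 14880 genes, and was called where the adjusted p was under 0.1 and the mean level at least 1 FPKM in either genotype. By this rule 1 of the 10 genes was called higher in CharmeKO hearts, Thbs1, and 1 was called lower, Eln. Hapln1 had a mean under 1 FPKM in both genotypes, so the rule could not call it. Over all genes tested, 1.53% were called higher and 0.524% lower, that is 227 and 78 genes, or 226 and 133 with a correction for gene length and GC content and 242 and 54 with upper-quartile scaling. The likelihood ratio test of edgeR called 3 of the 10 higher, Thbs1, Postn and Vcan, and Eln lower, beside 3.92% and 2.35% of all genes, and DESeq2 called the same 4 beside 4.33% and 3.21%. The median log2 fold change of the 10 genes was 0.11, and that of all genes tested was 0.02. Both CharmeKO pools lay above every CharmeWT pool for 3 of the 10 genes, against 17.8% of all genes, and below every CharmeWT pool for 1 of the 10, against 18.2%. With 3 and 2 pools these counts rest on few samples, and the calls of Eln and Thbs1 lay close to the threshold.

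**Figure D2:**
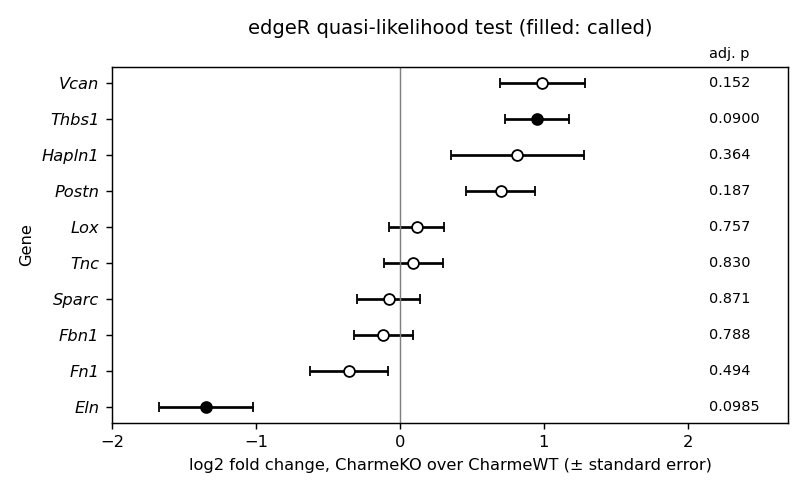
Log2 fold change of CharmeKO over CharmeWT for each of the 10 genes, with bars of 1 SE from edgeR's quasi-likelihood fit (3 and 2 pools) and the adjusted p beside each. Eln, at -1.35, and Thbs1, at 0.95, are the 2 genes with an adjusted p under 0.1.

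Eln (chromosome 5, 134702593 to 134747323, minus strand) encodes elastin, the extensible core of the elastic fibre. Its levels were 134.6, 78.5 and 169.9 FPKM in the CharmeWT pools and 40.8 and 59.7 FPKM in the CharmeKO pools. Both CharmeKO pools were below the lowest CharmeWT pool, and the CharmeWT pools varied more among themselves than the CharmeKO pools did. Eln fell by 1.35 on the log2 scale in CharmeKO (SE 0.327, adjusted p = 0.0985), a CharmeKO level 0.393 times that of CharmeWT. With a correction for gene length and GC content the log2 fold change was -1.01 and the call was lost (adjusted p = 0.162). It was also lost without CharmeWT pool 1 (-1.30, adjusted p = 0.248) or CharmeWT pool 3 (-1.08, 0.406). Over all genes, 2 and 0 were called in those fits, in that order. Without CharmeKO pool 1 the log2 fold change of Eln was -1.10, and Eln was not called.

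Fbn1 and Lox, the microfibril and cross-linking genes of the same fibre, were not called. Fbn1 (chromosome 2, 125300594 to 125507993, minus strand) had 11.9, 14.5 and 13.6 FPKM in CharmeWT and 9.95 and 14.7 FPKM in CharmeKO. Its CharmeKO pools fell on either side of the CharmeWT range, and the log2 fold change was -0.11 ± 0.206 (SE, adjusted p = 0.788). This was 0.10 once length and GC were corrected for, and 0.14 without CharmeKO pool 1. Lox (chromosome 18, 52516067 to 52529867, minus strand) had 6.29, 5.86 and 7.40 FPKM in CharmeWT and 7.10 and 7.06 FPKM in CharmeKO. Both CharmeKO values of Lox lay inside the CharmeWT range (log2 fold change 0.12 ± 0.191, SE, adjusted p = 0.757), and correction for length and GC gave -0.08. Within a pool, the ratio of Eln to Fbn1 FPKM was 11.3, 5.40 and 12.5 in CharmeWT and 4.10 and 4.07 in CharmeKO, and the ratio of Eln to Lox was 21.4, 13.4 and 23.0 in CharmeWT and 5.74 and 8.44 in CharmeKO. Both ratios were lower in the 2 CharmeKO pools than in any CharmeWT pool. The ratios are descriptions without a test of their own.

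Thbs1 (chromosome 2, 118111876 to 118127133, plus strand) encodes thrombospondin 1, a matricellular glycoprotein that can activate latent TGF-β and binds CD47. Its levels were 4.28, 5.47 and 6.26 FPKM in CharmeWT and 8.63 and 12.0 FPKM in CharmeKO. Both CharmeKO pools were above every CharmeWT pool, with the higher value in CharmeKO pool 2. Thbs1 rose 1.94-fold in CharmeKO (log2 fold change 0.95 ± 0.223, SE, adjusted p = 0.0900). The call was lost without CharmeWT pool 1 (0.82, adjusted p = 0.253), pool 2 (0.97, 0.200) or pool 3 (1.08, 0.303). Over all genes, 2, 187 and 0 were called in those fits, in that order. The log2 fold change of Thbs1 was 1.17 without CharmeKO pool 1 and 0.69 without CharmeKO pool 2.

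Postn (chromosome 3, 54361109 to 54391037, plus strand) encodes periostin, a matricellular protein of valves and cardiac fibroblasts that binds collagen and integrins. It had 116.4, 83.8 and 97.3 FPKM in CharmeWT and 191.1 and 131.5 FPKM in CharmeKO. The CharmeKO pools were both above the CharmeWT range, and CharmeKO pool 1 was 1.45 times CharmeKO pool 2. The log2 fold change was 0.70 ± 0.239 (SE, adjusted p = 0.187), 0.30 when corrected for length and GC and 0.41 without CharmeKO pool 1. Without CharmeKO pool 2 it was 0.94. With all 5 pools, the likelihood ratio test gave an adjusted p of 0.0986 and DESeq2 one of 0.0531.

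Vcan (chromosome 13, 89655312 to 89742509, minus strand) had 6.99, 5.95 and 6.33 FPKM in CharmeWT and 17.9 and 7.65 FPKM in CharmeKO. Both CharmeKO pools lay above the CharmeWT range, but CharmeKO pool 1 was 2.34 times CharmeKO pool 2. The log2 fold change was 0.99 ± 0.295 (SE, adjusted p = 0.152), 0.25 without CharmeKO pool 1 and 1.47 without CharmeKO pool 2. Hapln1 (chromosome 13, 89539796 to 89611652, plus strand), which encodes the link protein that stabilises the bond between versican and hyaluronan, had 34, 37 and 55 counts in CharmeWT and 83 and 46 in CharmeKO. These are 0.280, 0.355 and 0.471 FPKM in CharmeWT and 0.996 and 0.349 FPKM in CharmeKO, so only CharmeKO pool 1 lay outside the CharmeWT range, 2.85 times CharmeKO pool 2. The log2 fold change of Hapln1 was 0.82 ± 0.460 (SE, adjusted p = 0.364), and -0.07 without CharmeKO pool 1. Both genes lie 43659 bases apart with 0 other genes of the table between them. Their FPKM ratio, Vcan over Hapln1, was 25.0, 16.8 and 13.4 in CharmeWT and 18.0 and 21.9 in CharmeKO, with both CharmeKO values inside the CharmeWT range.

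**Figure D3:**
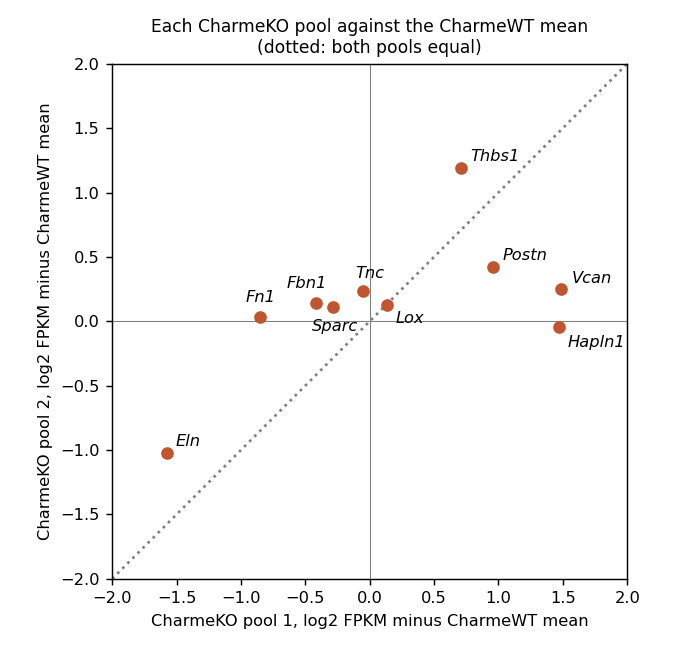
Log2 FPKM of each gene in CharmeKO pool 1 (x axis) and CharmeKO pool 2 (y axis), each minus the CharmeWT mean, with a dotted line where both pools are equal. Eln, at -1.58 and -1.03, and Thbs1, at 0.71 and 1.19, lie away from the CharmeWT mean in both pools, whereas Vcan, at 1.48 and 0.25, and Hapln1, at 1.47 and -0.04, do so mainly in pool 1.

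The other 3 genes overlapped between the groups. Sparc (chromosome 11, 55394500 to 55423183, minus strand), a collagen-binding matricellular protein, had 355.9, 390.0 and 330.7 FPKM in CharmeWT and 294.0 and 386.0 FPKM in CharmeKO. CharmeKO pool 1 was the lowest of the 5 and pool 2 the second highest, with a log2 fold change of -0.08 ± 0.221 (SE, adjusted p = 0.871) that was 0.11 without CharmeKO pool 1. Fn1 (chromosome 1, 71585520 to 71653200, minus strand) had 30.5, 41.8 and 41.2 FPKM in CharmeWT and 20.8 and 38.4 FPKM in CharmeKO. Its low value was again in CharmeKO pool 1, at 0.541 times pool 2. The log2 fold change of Fn1 was -0.35 ± 0.269 (SE, adjusted p = 0.494), 0.02 without CharmeKO pool 1 and -0.87 without CharmeKO pool 2. Tnc (chromosome 4, 63959785 to 64047015, minus strand) encodes tenascin-C, an anti-adhesive matricellular protein, and had 3.29, 2.73 and 3.33 FPKM in CharmeWT and 2.99 and 3.65 FPKM in CharmeKO. CharmeKO pool 1 lay inside the CharmeWT range and pool 2 above it, with a log2 fold change of 0.09 ± 0.205 (SE, adjusted p = 0.830), and -0.07 without CharmeKO pool 2. Postn to Sparc ratios were 0.327, 0.215 and 0.294 in CharmeWT and 0.650 and 0.341 in CharmeKO. Thbs1 to Tnc ratios were 1.30, 2.003 and 1.88 in CharmeWT and 2.89 and 3.29 in CharmeKO, so both ratios were higher in the CharmeKO pools than in any CharmeWT pool.

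The wider pathway was read from 6 lists of partner genes, 90 genes in all, of which 83 passed the filter on low counts. Of these, 1 was called higher, Ccn2, and 2 were called lower, Fbln5 and Htra1, with a median log2 fold change of -0.14 against 0.02 for all genes tested. Both CharmeKO pools lay below every CharmeWT pool for 24 of the 83, against the 18.2% of all genes, and above for 8, against the 17.8%. The medians and shares given here and for each list below are without the correction for gene length and GC content. With that correction, 1 partner gene was called higher and 3 lower, beside 226 and 133 of all genes. The likelihood ratio test called 11 of the 83 in either direction, against 6.27% of all genes, and DESeq2 14, against 7.54%. Among all genes tested 18.6% had an unadjusted p under 0.05, the share against which the counts at that level below are to be read, and 24 of the 83 did.

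Of the 16 elastic fibre and microfibril partners, all tested, 0 were called higher and 1 was called lower by the quasi-likelihood test, with 7 at an unadjusted p under 0.05, and the likelihood ratio test and DESeq2 called 4 and 5 in either direction. The median log2 fold change was -0.28, and 11 of the 16 values were negative, against 7165 of the 14880 for all genes tested. Fbln5 encodes fibulin-5, which links elastin to microfibrils and to integrins. It had 8.57, 5.86 and 10.5 FPKM in CharmeWT and 3.32 and 4.46 FPKM in CharmeKO. The CharmeKO pools were both below the CharmeWT range, with pool 1 the lowest and the lowest CharmeWT value in pool 2, as for Eln, and Fbln5 fell by 1.09 on the log2 scale (SE 0.265, adjusted p = 0.0992). The 2 partners with the highest levels were Mfap2, a microfibril glycoprotein, with a log2 fold change of -0.39 (adjusted p = 0.411), and Ltbp4, which binds latent TGF-β and takes part in elastic fibre assembly. Ltbp4 had 45.0, 60.4 and 56.6 FPKM in CharmeWT and 17.6 and 37.9 FPKM in CharmeKO, without overlap (log2 fold change -0.96 ± 0.301, SE, adjusted p = 0.163).

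Of the 5 genes of the lysyl oxidase family and its activating protease, 0 were called by any of the 3 tests and 0 had an unadjusted p under 0.05, with a median of -0.22. Loxl1, the family member most tied to elastin, had a log2 fold change of -0.33 (adjusted p = 0.462) and Loxl2 one of 0.05 (adjusted p = 0.892). Among the 18 other matricellular genes, 15 were tested, with 1 called higher, 0 lower and a median of -0.05. Ccn2 encodes connective tissue growth factor, a CCN protein. It had 38.9, 28.4 and 22.8 FPKM in CharmeWT and 158.1 and 47.9 FPKM in CharmeKO. Both CharmeKO pools were above the CharmeWT range, by far the most in pool 1, and Ccn2 rose by 1.78 on the log2 scale (SE 0.406, adjusted p = 0.0836). Sparcl1, the relative of Sparc, was the most abundant of that list, with a log2 fold change of 0.43 (adjusted p = 0.305).

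Of the 15 hyaluronan, hyalectan and small proteoglycan genes, 11 were tested and 0 were called, with 4 at an unadjusted p under 0.05, 2 called by each of the other tests. Their median was 0.11, and the leading genes by level, Dcn and Lum, both small leucine-rich proteoglycans that bind collagen, had log2 fold changes of 0.38 (adjusted p = 0.368) and 0.05 (adjusted p = 0.918). The 22 integrin and syndecan receptors were all tested and 0 were called, with 7 at an unadjusted p under 0.05, 1 called under the likelihood ratio test, 2 under DESeq2, and a median of -0.20. Itgb1, the β1 integrin chain, had a log2 fold change of 0.42 (adjusted p = 0.379), and Itgb5 one of -0.34 (adjusted p = 0.341). Of the 14 matrix proteases and inhibitors, 1 was called lower and 0 higher, with 3 at an unadjusted p under 0.05, 2 called under the likelihood ratio test, 3 under DESeq2, and a median of -0.11. Htra1, a secreted serine protease, had 26.5, 22.9 and 23.1 FPKM in CharmeWT and 13.5 and 15.0 FPKM in CharmeKO. Its groups were well apart and its pools close within each group, and it fell by 0.76 on the log2 scale (SE 0.179, adjusted p = 0.0937). Mmp2, a gelatinase, had a log2 fold change of -0.76 (adjusted p = 0.139) and Timp2, an inhibitor, one of -0.15 (adjusted p = 0.722).

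**Figure D4:**
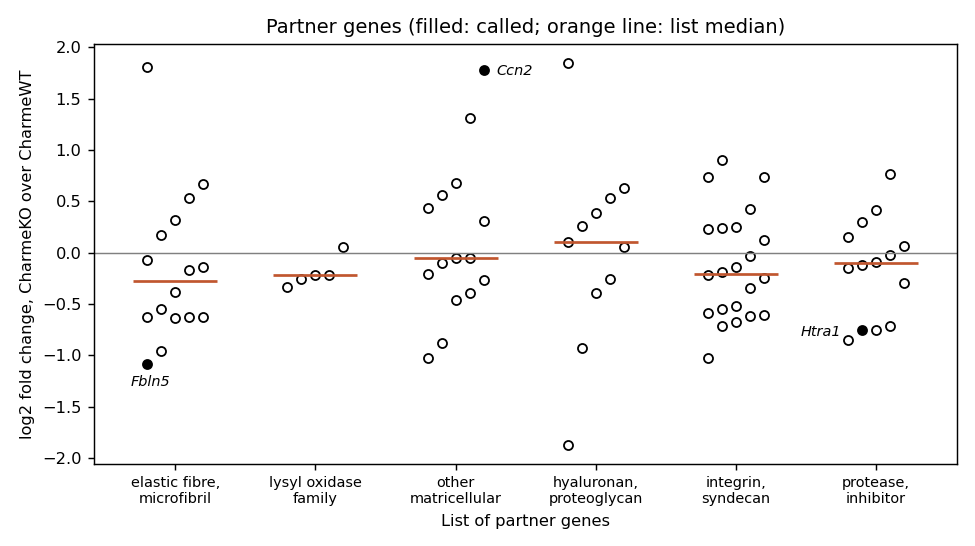
Log2 fold change of CharmeKO over CharmeWT for the 83 tested partner genes in 6 lists, with 1 point a gene and an orange line at each list's median. Filled points are the 3 called genes, Ccn2 at 1.78, Fbln5 at -1.09 and Htra1 at -0.76, and the medians lie between -0.28 and 0.11.

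The genes with the pattern most like each member over the 5 pools were sought among 9321 genes, by the root mean square difference of log2(CPM + 1) after centring each gene on its own mean. For Eln these were Slc40a1, the iron exporter ferroportin, at 0.149, Fbln5 at 0.166 and Paqr9 at 0.218. For Thbs1 they were Col12a1, a fibril-associated collagen, at 0.108, Sec23b, a coat protein of secretory vesicles, at 0.125 and Igfbp3, an IGF-binding protein, at 0.178. For Vcan they were Slmap at 0.0675, Bche at 0.0704 and Atad2 at 0.0726, and for Postn they were Psip1 at 0.0418, Mcts1 at 0.0420 and Cep57 at 0.0530. For 5 of the other members the nearest gene was Creb5 for Hapln1 at 0.0585, Gigyf2 for Lox at 0.0451, Tgfbr2 for Fn1 at 0.0336, Nubp2 for Tnc at 0.0289 and Maip1 for Sparc at 0.0154. The 5 pools share their scaling, and members with small differences between pools find near neighbours more easily, so the measure is not comparable between members.

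Fewer cells of a type and less RNA per cell cannot be told apart in RNA from whole hearts, so markers of the cell types that express these genes were summed. The 10 cardiac fibroblast markers, 3 of which (Mfap4, Lum and Dcn) are also partner genes, summed to 3423 to 3989 CPM in CharmeWT and to 3185 and 4811 CPM in CharmeKO. CharmeKO pool 1 was the lowest of the 5 pools and pool 2 the highest, and 0 of the 10 were called by any of the 3 tests or had an unadjusted p under 0.05, with a median log2 fold change of 0.06. The 10 smooth muscle and pericyte markers summed to 1106 to 2121 CPM in CharmeWT and to 1408 and 1702 CPM in CharmeKO, with a median of -0.44. Acta2 alone made up 503 to 1538 CPM of the CharmeWT sums and 949 and 1215 CPM of the CharmeKO sums. The other 9 markers summed to 582 to 681 CPM in CharmeWT and to 458 and 487 CPM in CharmeKO, below every CharmeWT pool. Rgs5 was the largest of these 9, with 215 to 299 CPM in CharmeWT and 223 and 145 CPM in CharmeKO. The separation of these sums depended on Rgs5. Cnn1, a smooth muscle calponin, was called higher (log2 fold change 1.04, adjusted p = 0.0521). Of the 10 markers, 4 had both CharmeKO pools below all CharmeWT pools, against 18.2% of all genes, 1 had both above and 5 overlapped. Endothelial and endocardial markers summed to 1137 to 1379 CPM and to 1012 and 1151 CPM, with 0 of 10 called, 3 at an unadjusted p under 0.05, 1 called by each of the other 2 tests and a median of -0.24. The part of these cell types in the results for Eln, Fbln5, Thbs1, Postn and Vcan was not tested.

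The heart label was met by the 10 cardiomyocyte markers, which summed to 53126 to 64378 CPM in CharmeWT and to 66468 and 58018 CPM in CharmeKO. Epicardial and mesothelial markers summed to 96.1 to 141 CPM in CharmeWT and to 174 and 158 CPM in CharmeKO, with both CharmeKO pools highest and 0 of 6 called, 3 at an unadjusted p under 0.05 and 1 by each of the other 2 tests. Macrophage markers summed to 92.2 to 160 CPM and to 129 and 207 CPM, with Mrc1 called higher (log2 fold change 1.03, adjusted p = 0.0689). Skeletal muscle markers summed to 3000 to 3857 CPM and to 4178 and 3740 CPM, nearly all of it Ckm, which cardiomyocytes also express, and the other 7 summed to 41.6 to 96.2 CPM in CharmeWT and to 69.8 and 150.2 CPM in CharmeKO. Of the 6 tested, 4 had both CharmeKO pools above all CharmeWT pools, and Myh8, a neonatal myosin, was called higher (2.91). Cartilage and bone markers stayed between 10.2 and 23.8 CPM, thymus and T cell markers at no more than 1.47 CPM and lung epithelium markers at no more than 1.75 CPM in every pool. Of the 7 salivary genes tested 6 were called higher, as were 4 of the 6 adipose genes, among them Ucp1 and Adipoq. The part of these other tissues in the results was not tested.

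The exons of a member, merged over its transcripts, had a median length of 7935 bases against 4239 for all genes tested, and there was a median GC content of 51.1% against 49.8%. With the correction for both, the log2 fold change of Thbs1 was called and that of Eln was not, and the signs of Fbn1 and Lox turned.

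**Figure D5:**
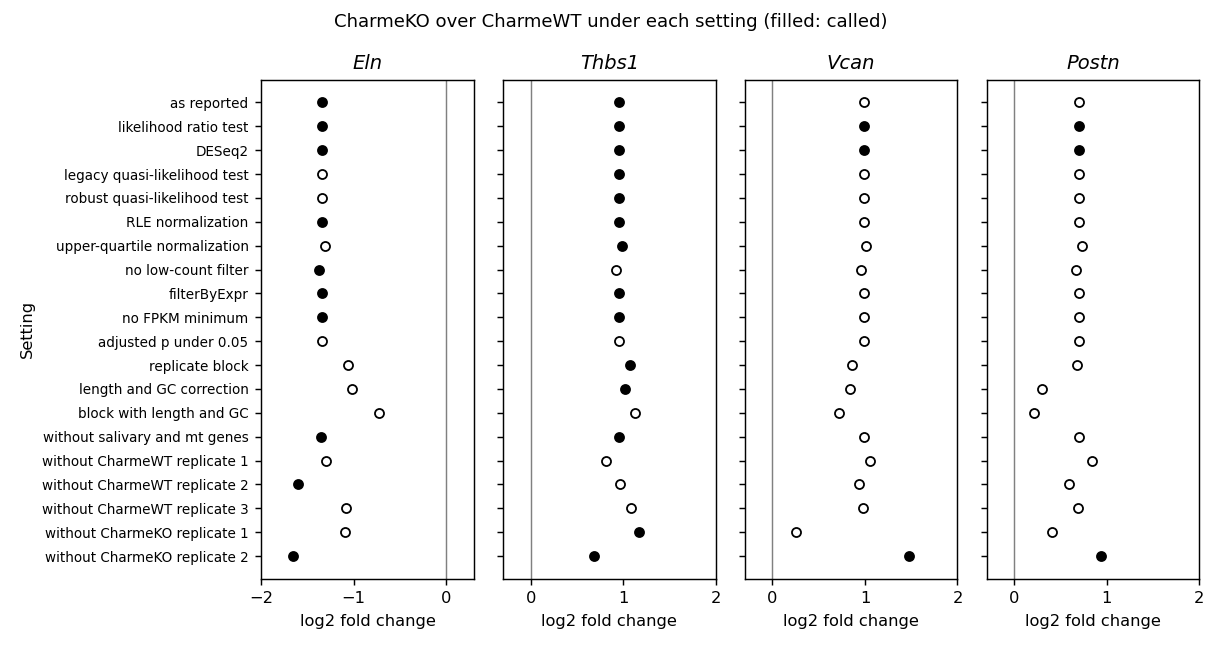
Log2 fold change of CharmeKO over CharmeWT for Eln, Thbs1, Postn and Vcan under each alternative way of processing, with filled points where the gene was called. Eln lies between -1.66 and -0.73 and Thbs1 between 0.69 and 1.17 in every setting. Vcan falls to 0.25 without CharmeKO pool 1, and Postn to 0.21 with the replicate block and the length and GC correction together.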

How the data were processed

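Poly(A) RNA of 5 pools of hearts at postnatal day 2 was sequenced with stranded libraries. Per the study's methods and the submitters' processing notes, the authors trimmed the reads with cutadapt and Trimmomatic, aligned them with STAR to GRCm38 and counted reads per Ensembl gene on the reverse strand. The deposited values used here are raw read counts per gene, without normalization. A second deposited table, of FPKM, was not used because its decimal marks could not be checked as numbers. Groups were taken from the genotype labels.

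The 14880 of 49671 genes that reached 10 counts in 2 or more pools were tested with edgeR 4.0.16 (R 4.3.3; TMM, glmQLFit and glmQLFTest, Benjamini-Hochberg). Calls required an adjusted p under 0.1 and a mean of at least 1 FPKM in either genotype. The SE is the size of the log2 fold change over the square root of F. The methods of the study use edgeR's likelihood ratio test, which was run as an alternative, as was DESeq2 1.42.0. FPKM used the exon union length of GENCODE M21 (GRCm38), with 1 kb for 23 tested genes that had none. The fit was first tested on simulated data with 200 changed genes. Both genotypes were drawn from the CharmeWT means, without added RNA of other tissues or a bias by gene length and GC content. The simulation therefore did not cover these features.

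The 10 genes, the partner lists and the marker lists were chosen with earlier results of these data known. Text names the 10 genes and Charme, and of each partner list the called genes and the 2 with the highest mean FPKM. Markers are described by sums, counts and called genes, and similar genes by the 3 nearest with a mean of at least 10 CPM. The gene nearest to Fbn1 is not reported here. Mrc1, Myh8, Cnn1, Rgs5, Ucp1 and Adipoq were named after their values were seen. P-values weigh the difference between genotypes against the spread between pools, and each pool mixes several animals. That spread was fitted as the same in both genotypes, although pools held 9 hearts in CharmeWT and 3 in CharmeKO.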

Additional observations from a re-analysis of the deposited data

How the results depend on the processing

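Of the 10 genes, 2 were called as reported. The count was 4 with the likelihood ratio test and 4 with DESeq2 (Postn and Vcan added), 1 with the legacy or the robust quasi-likelihood test, upper-quartile scaling, the replicate block or the length and GC correction (Thbs1), 1 without the low-count filter (Eln), and 0 at an adjusted p under 0.05 (4 at an unadjusted p under 0.05) or with the replicate block and the length and GC correction together (3 unadjusted). Leaving out 1 pool gave 0 to 5, with 0 without CharmeWT pool 1 or 3 (4 unadjusted each) and 5 without CharmeKO pool 2. Of the partner genes, 3 were called as reported, 11 with the likelihood ratio test, 14 with DESeq2, 1 with upper-quartile scaling or without the low-count filter, and 0 with the robust test (23 unadjusted), at 0.05 (24) or with the block and correction together (15); leaving out 1 pool gave 0 to 32, the 32 without CharmeKO pool 2. Over all genes 305 became 933, 1122, 111 at 0.05 and 29 with block and correction, and 0 (without CharmeWT pool 3, 1315 unadjusted) to 4607 (without CharmeKO pool 2) with 1 pool left out. For Eln the replicate block gave -1.06 (adjusted p = 0.154) and for Thbs1 1.07. The deviations of same-numbered pools correlated at 0.137 and 0.0778, and those of the other pairs at -0.137 to 0.0587. With 2 CharmeKO pools, deviations from their mean mirror each other, so these values cannot decide whether the pools pair.

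Signs turned for Fbn1 with the length and GC correction (0.103) and with the block added (0.0688), and for Lox (-0.0839 and -0.0050). With 1 pool left out, the log2 fold change ranged from -0.43 to 0.14 for Fbn1, -0.87 to 0.0237 for Fn1, -0.29 to 0.11 for Sparc, -0.0739 to 1.43 for Hapln1 and -0.0679 to 0.23 for Tnc. Where a CharmeKO pool is left out, the lone pool is assumed to vary like the CharmeWT pools. The cause of these changes was not tested. The use of the deposited FPKM for levels was not run. Hapln1 rests on 34 to 83 counts a pool, which limits its precision.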
